A study of Rattus norvegicus with 8 samples.

Results

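The genes described are the nuclear genes for subunits of the mitochondrial respiratory chain, followed in the mRNA of rat carotid arteries with and without intimal injury. Members were taken by name from the count table. They are the names starting with Ndufa, Ndufb, Ndufc, Ndufs or Ndufv (complex I, assembly factors named Ndufaf left out), Uqcr together with Cyc1 (complex III), and Cox4i, Cox5, Cox6, Cox7 or Cox8 (complex IV), and the genes Sdha, Sdhb, Sdhc and Sdhd (complex II). Of 37209 genes in the table, 78 met the naming rule and 66 had a summed count of 80 or more over the 8 libraries. These 66 members comprise 37 genes of complex I, 4 of complex II, 10 of complex III and 15 of complex IV, and all 66 had enough counts for the test. The injured group held 4 left carotid arteries of male Sprague-Dawley rats weighing 400 g on average, in which a balloon catheter had been used to damage the intima. The control group held 4 undamaged right carotid arteries, described as the rats' own controls, and the labels do not say which arteries came from which rat. All arteries were taken 2 weeks after the injury, and the labels carry no transgene, drug or age. The control vessels came from operated animals, so unoperated rats are not part of the comparison.

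The respiratory chain sits in the inner mitochondrial membrane and passes electrons from NADH and succinate to oxygen. Complex I accepts them from NADH, and complex II, which is also the succinate dehydrogenase of the citric acid cycle, accepts them from succinate. Complex III hands them to cytochrome c, and complex IV, cytochrome c oxidase, reduces oxygen with them. Complexes I, III and IV pump protons, and ATP synthase uses the gradient. Most subunits are encoded in the nucleus and a few in mitochondrial DNA, and complex IV has some subunits with isoforms restricted to heart and skeletal muscle, brown fat, lung or testis. Vascular smooth muscle, the main cell of the arterial wall, leaves its contractile state and divides after intimal injury.

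The total count per library lay between 13470754 and 15276952 in the control arteries and between 11459632 and 16658089 in the injured arteries. Levels are given as CPM, which are counts relative to the library total after TMM scaling. They are comparable between arteries for a given gene but not between genes, because gene length was not used. A count of 3, taken as the detection floor and covering counting error only, corresponded to 0.18 to 0.262 CPM. Control artery 4 stood apart, with log2 CPM that correlated across genes at 0.83 to 0.852 with the other controls, which correlated with each other at 0.976 to 0.978. It held 15670 CPM of 13 sympathetic neuron markers summed, and injured artery 3 held 4225 CPM, against 12.5 to 293.9 CPM in the other 6 arteries. The RNA extraction text of the labels speaks of prefrontal cortex, whereas the tissue labels name the carotid artery. The 10 contractile smooth muscle markers summed to between 11540 and 55210 CPM, so that smooth muscle genes were present in every library.

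Transcripts of the respiratory chain were lower after injury in nearly every member, and most by less than 2-fold. A negative log2 fold change, injured over control, was found for 64 of the 66 members, where 54.8% of all 14359 tested genes had one. The median over the members was -0.67 on the log2 scale, with quartiles of -0.82 and -0.52, and 56 members lay between -1 and -0.25. Over all tested genes the median was -0.06, and over tested genes with an expression level like that of the members it was -0.07. At a false discovery rate (FDR) under 0.05 in edgeR's quasi-likelihood test, 34 members were lower and 1 was higher, whereas 6.39% of all tested genes were lower and 10.8% were higher by that criterion. With the additional requirement of a fold change above 2, which is what called means in the following, 6 members were lower and 1 was higher, beside 2.57% and 8.31% of all tested genes. The 6 were Cox4i2, Ndufa4l2, Uqcrb-ps1, Cox8a, Cox7a2 and Ndufa10l1, and the member called higher was Cox6a2. Since Cox6a2 became a member only through the injured arteries, its rise is given as a description and not as a test result. In 39 members every injured artery lay below every control artery, an order shown by 9.51% of all tested genes. The groups overlapped in 26 members, and in 1, Cox6a2, every injured artery lay above every control, as in 14.2% of all tested genes. Because tissue was sequenced in bulk, fewer cells of a type and less RNA per cell cannot be told apart.

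The number of members below the FDR threshold depended on single libraries. Without control artery 4 it was 36, beside 12.9% of all tested genes, and without both control artery 4 and injured artery 3 it was 50, beside 15.9%. It was 17 without control artery 2 (2.99% of all tested genes), 15 without injured artery 1 (3.58%), 14 without injured artery 2 (2.64%) and 14 without injured artery 4 (2.39%). The number called lower was 3 without control artery 4, beside 3.94% of all tested genes, and 3 without injured artery 1 (2.05%), 2 without injured artery 2 (1.36%), 10 without injured artery 3 (2.57%) and 3 without injured artery 4 (1.33%). The count of negative log2 fold changes was 63 or 64 in each of these fits.

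**Figure D1:**
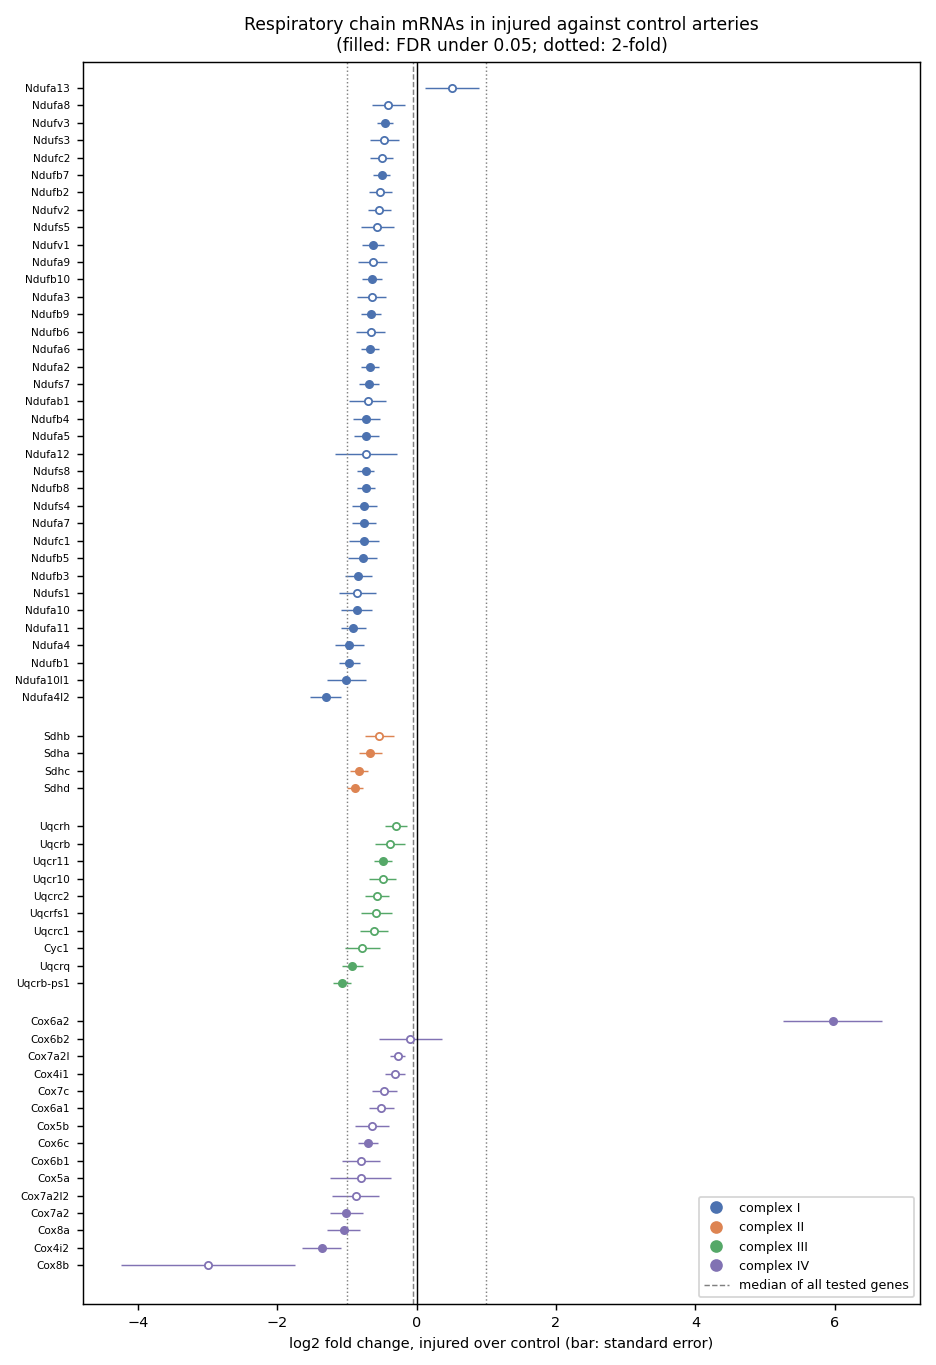
Log2 fold change of 65 of the 66 members, injured over control arteries (x axis, log2 scale; bars are standard errors derived from the edgeR test), grouped by complex and sorted within each; filled points passed an FDR of 0.05, dotted lines mark a 2-fold change and the dashed line marks the median of all tested genes. Most points lie between the dotted line on the left and the centre line, and Cox6a2 lies far to the right at 5.97.

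The 66 members took between 0.276% and 0.549% of all counts in each artery. Their summed level was 4300, 4946, 3744 and 5578 CPM in control arteries 1 to 4 and 2802, 2679, 3537 and 2953 CPM in injured arteries 1 to 4. Every injured artery was below every control in this TMM-scaled sum, and injured artery 3 and control artery 3 lay closest to each other. As a share of all counts, without TMM scaling, the groups overlapped. There injured artery 3 had 0.378% and control artery 3 had 0.355%. Relative to the control mean, the median over the members was -0.79, -0.85, -0.40 and -0.68 on the log2 scale in injured arteries 1 to 4. In the control arteries it was -0.10, 0.11, -0.30 and 0.25. Control artery 4 had the highest control level for 45 of the 66 members, and injured artery 3 the highest injured level for 56. These are the libraries with the sympathetic neuron markers, whose part in the levels was not tested. The members' median log2 fold change was -0.55 without control artery 4, -0.78 without injured artery 3 and -0.67 without both.

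**Figure D2:**
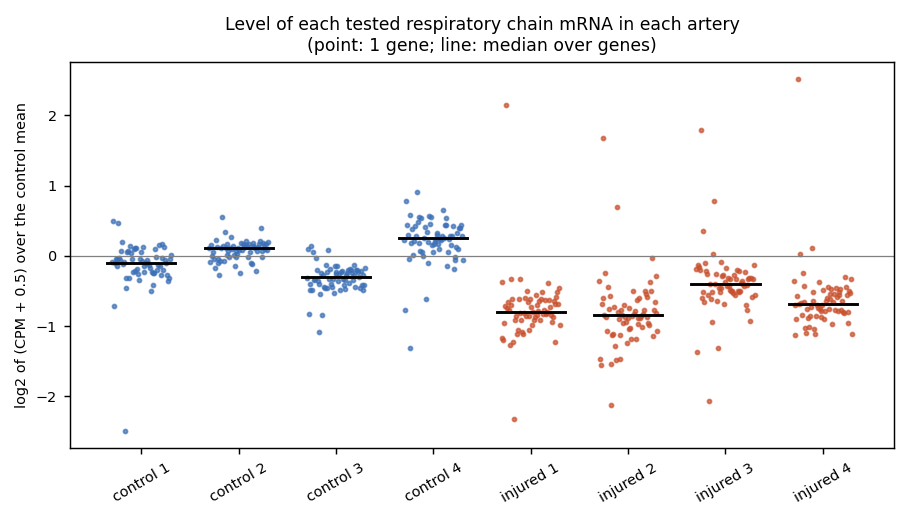
Level of each of the 66 members in each artery, as the log2 of CPM plus 0.5 over the mean of the controls (y axis, log2 scale; each point is 1 gene, each line the median over genes). The medians of the injured arteries lie between -0.85 and -0.40 and those of the control arteries between -0.30 and 0.25.

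Complex I had 37 members, of which 24 were lower at FDR under 0.05 and 36 had a negative log2 fold change, with a median of -0.68. Its core subunits carry the redox centres, and of these Ndufs8, Ndufs7 and Ndufv1 fell. Ndufs8, an iron-sulfur subunit of the arm that reaches towards the membrane, was measured at 54.5, 60.9, 48.2 and 57.5 CPM in the controls and at 31.4, 30.9, 39.1 and 32.0 CPM after injury. Its injured values were all below its control values, with a log2 fold change of -0.73 (standard error, SE, of 0.12 and adjusted p = 0.00589). Ndufs7, the subunit with the last iron-sulfur cluster before quinone, had 57.3, 61.1, 47.1 and 48.4 CPM in the controls and 34.5, 26.3, 37.2 and 35.5 CPM after injury. The groups were apart here too, by -0.68 (SE 0.15, adjusted p = 0.0164). Ndufv1, which binds NADH and FMN, fell by 0.63 on the log2 scale (SE 0.16, adjusted p = 0.0289), from 136.7 ± 22.8 to 88.3 ± 12.6 CPM (SD, n = 4).

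Ndufs1, Ndufv2 and Ndufs3, also of the core, missed the threshold. Ndufs1, the largest iron-sulfur subunit, had a log2 fold change of -0.85 with an adjusted p of 0.0647, and control artery 4 stood at 148.8 CPM of it, whereas the other controls had 66.3 to 93.6 CPM. Without control artery 4 the value was -0.54 and the adjusted p 0.0368. Ndufv2, the partner of Ndufv1, had -0.54 with an adjusted p of 0.058, and its groups did not overlap. Ndufs3 had -0.46 with an adjusted p of 0.167 and overlapping groups.

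Among the 30 members grouped with complex I by name but outside its core, 20 were lower at FDR under 0.05. Ndufb1, a membrane subunit, had 32.9, 34.6, 30.6 and 37.7 CPM in the controls and 16.0, 14.2, 20.9 and 18.4 CPM after injury. The groups lay clearly apart, with a log2 fold change of -0.97 (SE 0.15, adjusted p = 0.00433). Ndufa4, named for complex I but found with complex IV in purified enzyme, had 100.2, 127.8, 86.1 and 157.2 CPM in the controls and 55.1, 53.7, 75.6 and 56.9 CPM after injury. It fell by 0.96 (SE 0.21, adjusted p = 0.0168). Next were Ndufa11 at -0.91, Ndufa10 at -0.86, Ndufb3 at -0.84, Ndufb5 at -0.78, Ndufc1, Ndufa7 and Ndufs4 at -0.75 and Ndufb8 at -0.73, with adjusted p between 0.00666 and 0.0464. The remaining 8 of the 20, among them Ndufa5 at -0.72 and Ndufv3 at -0.45, lay between these values. Of the 10 that did not pass, 9 lay between -0.72 for Ndufa12 and -0.41 for Ndufa8. Ndufa10l1, named for its likeness to Ndufa10, was called lower at -1.01 (adjusted p = 0.0412). Its groups overlapped, since control artery 3 had 5.61 CPM and injured artery 2 had 6.09 CPM, and the call was lost when any artery but control artery 3 was left out. How reads that match both Ndufa10 and Ndufa10l1 were assigned is not given in the sources used here, so the split between them is uncertain. Ndufa13 was the only member of complex I with a positive value, 0.51 with an adjusted p of 0.413, and it had only 187 counts in all 8 libraries together.

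Ndufa4l2 had the lowest value of complex I. This paralogue of Ndufa4 is known as a gene induced by hypoxia. It was measured at 17.1, 19.3, 17.0 and 10.3 CPM in the controls and at 7.12, 5.44, 6.12 and 7.12 CPM after injury. Control artery 4 was the lowest control and was still above every injured artery. The log2 fold change was -1.30 (SE 0.22, adjusted p = 0.00635), and leaving out any single artery did not end the call. The 10 contractile smooth muscle markers were likewise lowest among the controls in control artery 4, with 55210, 47800, 41000 and 19070 CPM summed in the controls and 18120, 15490, 11540 and 14410 CPM after injury. Of these markers 8 were called lower, their median being -1.52 on the log2 scale. Their part in the fall of Ndufa4l2 was not tested.

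Succinate dehydrogenase, complex II, has 4 subunits, all encoded in the nucleus. Both of its membrane anchors fell. Sdhd was measured at 116.5, 137.5, 102.5 and 117.2 CPM in the controls and at 61.2, 59.4, 69.3 and 67.1 CPM after injury. The lowest control was above the highest injured artery by more than either group's standard deviation, and the log2 fold change was -0.88 (SE 0.12, adjusted p = 0.00219). Sdhc had 166.2, 166.9, 128.9 and 129.3 CPM in the controls and 82.6, 75.9, 90.6 and 85.2 CPM after injury. It fell by 0.82 on the log2 scale (SE 0.13, adjusted p = 0.00467). Sdha, the flavoprotein with the succinate site, fell by 0.66 (SE 0.16, adjusted p = 0.0259), from 246.5 ± 41.8 to 155.7 ± 21.4 CPM (SD, n = 4). Sdhb, the iron-sulfur subunit, had -0.53 with an adjusted p of 0.122, and control artery 3 with 56.8 CPM lay below injured artery 3 with 65.9 CPM. Sdhc and Sdhd stayed under an FDR of 0.05 without any single artery, and Sdha did not without control artery 2 or injured artery 1, 2 or 4.

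Complex III had 10 members with a median log2 fold change of -0.57, and 3 were lower at FDR under 0.05. Uqcrq, a small subunit near the quinone site, had 89.6, 102.0, 78.9 and 85.3 CPM in the controls and 44.6, 42.3, 60.1 and 40.8 CPM after injury. The groups were apart by -0.92 (SE 0.15, adjusted p = 0.00543). Uqcr11 fell by 0.48 (SE 0.13, adjusted p = 0.0368). The catalytic subunits did not pass, with -0.58 for Uqcrfs1, the Rieske iron-sulfur protein (adjusted p = 0.116), and -0.78 for Cyc1, the cytochrome that passes electrons on to cytochrome c (adjusted p = 0.0701). Cyc1 ranged from 77.7 to 158.3 CPM among the controls and from 51.5 to 85.4 CPM among the injured arteries, so the groups overlapped. The core proteins Uqcrc1 and Uqcrc2 had -0.61 and -0.56 with adjusted p of 0.0799 and 0.0595. Uqcr10, a small subunit, had -0.48 with an adjusted p of 0.135. Uqcrh, the hinge protein, had the value nearest to 0, -0.30.

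Uqcrb-ps1 was called lower with a log2 fold change of -1.07 (SE 0.13, adjusted p = 0.00149) and had the lowest adjusted p of the members that fell. It was measured at 53.7, 65.3, 49.4 and 61.8 CPM in the controls and at 24.3, 26.0, 30.1 and 29.5 CPM after injury. The groups did not overlap, and leaving out any single artery did not end the call. The symbol names a pseudogene of Uqcrb, but it held 4807 counts in all and Uqcrb 2003 counts. Uqcrb itself had a log2 fold change of -0.38 with an adjusted p of 0.274. Reads of a near-identical copy can be assigned to either row, so both rows are uncertain as separate measurements.

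Complex IV had 15 members with a median of -0.70, which was -0.46 without control artery 4. Its values were the most spread out, from -2.996 for Cox8b to 5.97 for Cox6a2. Cox8b reached the summed count required of members only through the controls, and Cox6a2 only through the injured arteries. The ends of the spread therefore depend on how members were chosen. Of the 15 members, 4 were lower at FDR under 0.05. Cox8a, the subunit VIII isoform found in most tissues, had 123.9, 142.7, 99.3 and 160.7 CPM in the controls and 56.3, 45.0, 89.3 and 64.2 CPM after injury. It was called lower at -1.05 (SE 0.23, adjusted p = 0.0191), and injured artery 3 came close to the lowest control. Cox7a2, the subunit VIIa isoform outside striated muscle, had 9.58, 9.27, 7.83 and 13.2 CPM in the controls and 3.83, 4.50, 6.18 and 5.32 CPM after injury. It was called lower at -1.01 (SE 0.23, adjusted p = 0.0218). Both were just beyond 2-fold and lost the call easily. Without control artery 4, for example, the log2 fold change was -0.94 for Cox8a and -0.85 for Cox7a2, with adjusted p of 0.0177 and 0.0232. Cox8a also lost the call without control artery 2 or injured artery 1, 2 or 4, and Cox7a2 without injured artery 1, 2 or 4, with adjusted p between 0.0509 and 0.0703. Cox6c, a membrane subunit of unknown catalytic role, fell by 0.70 (SE 0.15, adjusted p = 0.0141), from 141.4 ± 22.1 to 87.0 ± 9.60 CPM (SD, n = 4).

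Other general subunits of complex IV did not pass. Cox4i1, the common isoform of subunit IV, had -0.31 with an adjusted p of 0.177. Cox6a1 had -0.51 (adjusted p = 0.0934), Cox7c -0.46 (adjusted p = 0.117) and Cox5b -0.64 (adjusted p = 0.115), and the groups of each overlapped. Cox5a, at -0.80 with an adjusted p of 0.257, ranged from 31.1 to 96.0 CPM among the controls. Cox7a2l, which acts in joining complexes III and IV into supercomplexes, had -0.27 with an adjusted p of 0.122 although its groups did not overlap. Cox6b1, the common isoform of subunit VIb, had -0.79 with an adjusted p of 0.0819 and groups that did not overlap. Cox7a2l2, with 106 counts in all, had -0.87 with an adjusted p of 0.12. Cox6b2, the isoform of subunit VIb known from testis, had -0.09 with an adjusted p of 0.909, and the sign of that value turned in 4 alternative fits.

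Cox4i2 had the largest fall of the members that passed. It encodes the isoform of subunit IV known from lung and from oxygen-sensing smooth muscle. It was measured at 17.6, 11.6, 13.2 and 7.02 CPM in the controls and at 5.20, 4.13, 4.49 and 5.40 CPM after injury. Control artery 1 was the highest and control artery 4 the lowest of the controls, and no injured artery reached the lowest control. The log2 fold change was -1.36 (SE 0.28, adjusted p = 0.0139). Leaving out injured artery 2 ended the call, with an adjusted p of 0.051, and leaving out any other artery did not. The ratio of Cox4i2 to Cox4i1 counts was 5.61, 3.21, 4.93 and 1.81 percent in the controls and 2.01, 1.6, 1.53 and 2.07 percent after injury. These ratios overlapped through control artery 4. The contractile smooth muscle sum given for Ndufa4l2 was also highest in control artery 1 and lowest, among the controls, in control artery 4.

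Cox6a2 went the other way. It encodes the isoform of subunit VIa made in heart and skeletal muscle. Its reads numbered 0, 0, 1 and 0 in the controls and 30, 16, 23 and 30 in the injured arteries, which are 1.79, 1.16, 1.29 and 2.45 CPM after injury. All injured arteries were above all controls, and the level stayed low in each. The fitted log2 fold change of 5.97 (SE 0.71, adjusted p = 0.00138) rests on a control group with a single read. Cox6a2 reached the summed count of 80 and the filter of the test only through the injured arteries, with 99 of its 100 reads, so a gene low in both groups would not have been a member and its rise is given as a description. As a ratio of the summed counts over the summed library totals, 99 reads against 1 gave 102-fold, with an exact 95% interval from counting error of 17.8 to 4057. The general isoform Cox6a1 stood at 199.4 ± 38.9 CPM in the controls and 140.3 ± 23.3 CPM after injury (SD, n = 4).

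Markers of skeletal muscle moved together with Cox6a2. Of 17 tested markers 13 were called higher, the median log2 value being 4.50, and the sum of the list was 173.7 to 477.2 CPM in the controls and 509 to 1699 CPM after injury. Myh1, a fast myosin heavy chain, had 136.4, 94.96, 79.52 and 219.6 CPM in the injured arteries and 0.07 to 0.42 CPM in the controls. Injured artery 4 was the highest of the group for Myh1, as for Cox6a2. Myh7, the slow myosin chain shared with heart, had too few counts for the test. The cardiac markers Nppa and Myl7 were at or below 0.07 CPM in all arteries, and of the 4 tested cardiac markers 2, Myh6 and Actc1, were called lower, whereas Tnnt2 and Myl4 had log2 fold changes of 2.50 and 1.83 with adjusted p of 0.0883 and 0.0725. The part of skeletal muscle in the level of Cox6a2 was not tested.

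Cox8b, the isoform of subunit VIII known from heart, skeletal muscle and brown fat, had 0, 3.61, 0.83 and 4.80 CPM in the controls and 0.06, 0.15, 0.17 and 0.82 CPM after injury. The log2 fold change of -2.996 (SE 1.25) was not called, with an adjusted p of 0.145. Its reads numbered 0, 44, 12 and 69 in the controls and 1, 2, 3 and 10 in the injured arteries. Cox8b thus reached the summed count required of members only through the controls. A gene low in both groups would not have been a member, so its fall is given as a description. Control arteries 2 and 4 were the high ones, control artery 3 was just above the highest injured artery, and control artery 1 had none. Ucp1, the uncoupling protein of brown fat, had 0, 85.6, 8.80 and 135.2 CPM in the controls and 0, 0, 2.70 and 0 CPM after injury, and so ranked the controls in the same order. The sum of 12 brown and perivascular adipocyte markers was 254.8, 1097, 465.1 and 1001 CPM in the controls and between 225.8 and 479.4 CPM after injury, with Elovl3 at 0 in all arteries. Of the 10 tested markers of this list 2, Cidea and Slc2a4, were called lower. Without control arteries 2 and 4 the members' median log2 fold change was -0.46, and 18 members were lower at FDR under 0.05, beside 7.64% of all tested genes. Control artery 4 is also the library with the most sympathetic neuron markers and the lowest contractile markers among the controls, so leaving it out does not address fat alone. The part of fat tissue in the members' levels was not tested.

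**Figure D3:**
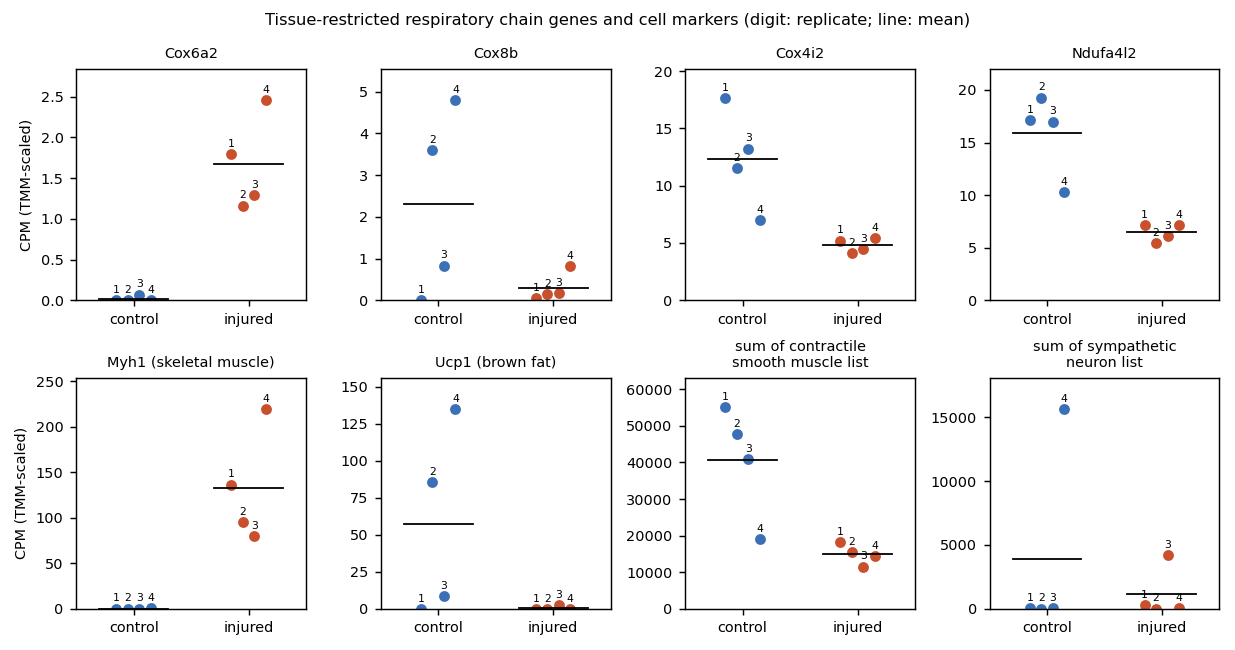
CPM of 4 tissue-restricted members (upper row) and of cell markers (lower row) in each artery (y axes, linear from 0; each point is an artery with its replicate number, each line a group mean). Cox6a2 and Myh1 are high in the injured arteries alone, Cox8b and Ucp1 are highest in control arteries 2 and 4, and Cox4i2, Ndufa4l2 and the contractile smooth muscle sum are lowest among controls in control artery 4.

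Other cell lists also differed between the groups. Of 10 macrophage markers 10 were called higher, with a median of 2.42 on the log2 scale, and of 9 proliferation markers 9, with 2.69. No Schwann cell marker was called among 7 tested, and of 7 endothelial markers 2 were called higher and 1 lower. Their part in the members' values was not tested.

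The 13 protein-coding genes of mitochondrial DNA provide the remaining subunits of complexes I, III, IV and V. Their median log2 fold change was -0.37, and 11 of 13 were negative. At FDR under 0.05 only ATP8 was lower, and it was also called by fold change, with 20.02, 21.16, 24.7 and 25.6 CPM in the controls and 8.13, 7.62, 17.9 and 10.2 CPM after injury. The value was -1.06 (SE 0.28, adjusted p = 0.0369), and the call was lost when any artery but control artery 4 or injured artery 3 was left out. ATP8 held 1946 counts in all, whereas ATP6 held 417723 and had -0.37 with an adjusted p of 0.247. How reads that match both ATP8 and ATP6 were assigned is not given in the sources used here. ATP8 is therefore uncertain as a separate measurement. COX1, COX2 and COX3, the catalytic core of complex IV, had -0.28, -0.29 and -0.40 with adjusted p of 0.498, 0.442 and 0.258. CYTB of complex III had -0.50 with an adjusted p of 0.159, and ND1 of complex I had -0.72 with an adjusted p of 0.0555.

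ND6 rose. This complex I subunit is the only protein encoded on the light strand of mitochondrial DNA. It was measured at 79.9, 87.0, 61.1 and 75.5 CPM in the controls and at 281.7, 455.3, 114.6 and 359.3 CPM after injury. Every injured artery was above every control, and injured artery 3 was the lowest of its group by a wide margin. The log2 fold change was 2.00 (SE 0.38, adjusted p = 0.01), and no single artery, when left out, ended the call. ND5, whose gene adjoins ND6 on the opposite strand, had -0.31 with an adjusted p of 0.381. Whether reads were counted by strand is not given in the sources used here. Reads from ND6 and antisense reads from the other strand therefore cannot be told apart.

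**Figure D4:**
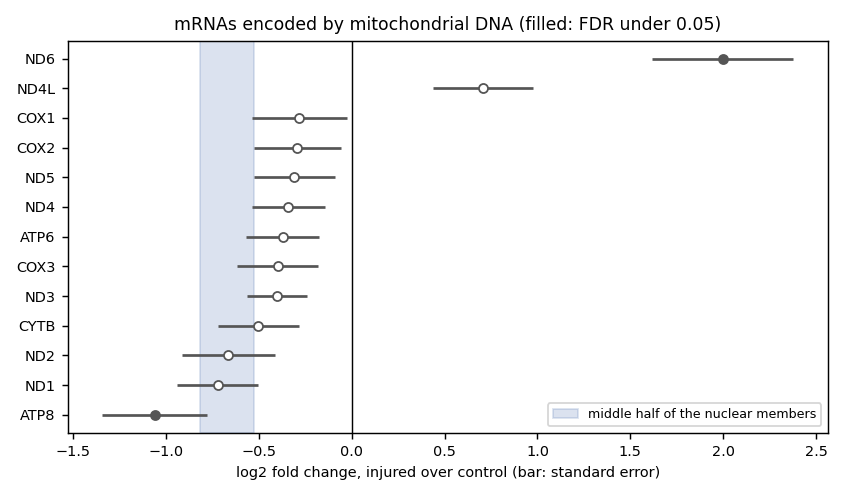
Log2 fold change of the 13 protein-coding genes of mitochondrial DNA, injured over control (x axis, log2 scale; bars are standard errors derived from the edgeR test; filled points passed an FDR of 0.05), with the range between the quartiles of the 66 nuclear members shaded. ND6 at 2.00 and ATP8 at -1.06 are the filled points.

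Other nuclear genes of mitochondrial energy metabolism had medians close to that of the respiratory chain. The genes with the prefix Atp5, mostly subunits of ATP synthase, had a median log2 fold change of -0.66, with 9 of 17 lower at FDR under 0.05. Of all tested genes 6.39% were lower by that criterion, which is also the one used for the lists that follow. The largest fall there was that of Atp5l, which was called at -1.02 (adjusted p = 0.00283), followed by Atp5o at -0.88 (adjusted p = 0.0061) and Atp5b, the catalytic beta subunit, at -0.86 (adjusted p = 0.0271). Citric acid cycle enzymes had a median of -0.73, with 5 of 13 lower. Genes for pyruvate entry had a median of -0.77, with 6 of 11 lower. Pdk4, a kinase that switches off pyruvate dehydrogenase, was called at -1.24 (adjusted p = 0.0368) and lost the call without control artery 2 or any injured artery, while Mpc1, a part of the pyruvate carrier, fell by 0.95 (adjusted p = 0.0107). Fatty acid oxidation had a median of -0.68, with 6 of 17 lower, among them Acadl at -1.10 (adjusted p = 0.0123) and Acadm at -0.999 (adjusted p = 0.00557), the long-chain and medium-chain acyl-CoA dehydrogenases.

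Lists of genes that assemble the chain or translate its mitochondrial part had medians nearer to 0. Respiratory chain assembly factors had a median of -0.32, with 2 of 38 lower at FDR under 0.05, beside 6.39% of all tested genes. Mitochondrial ribosome proteins had a median of -0.27, with 8 of 72 lower. In that list Mrps36, which is now placed with the oxoglutarate dehydrogenase complex in spite of its name, was called at -1.05 (adjusted p = 0.00371), and Mrpl47 fell by 0.98 (adjusted p = 0.0382). The list of electron carriers and shuttles had a median of -0.47, with 2 of 17 lower. Cycs, cytochrome c, was among those that did not pass, at -0.59 with an adjusted p of 0.142.

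**Figure D5:**
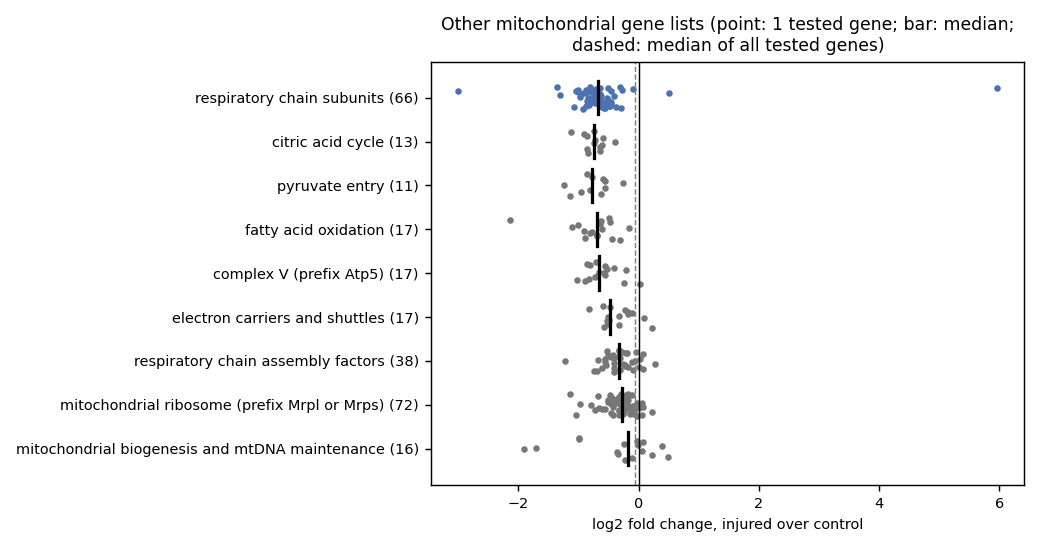
Log2 fold change, injured over control (x axis, log2 scale), of the tested genes in the respiratory chain and in 8 lists of other mitochondrial genes (number tested in parentheses; each point is a gene, each bar the median, the dashed line the median of all tested genes). The medians lie between -0.77 and -0.66 for the respiratory chain, the citric acid cycle, pyruvate entry, fatty acid oxidation and complex V, and between -0.47 and -0.17 for the other lists.

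Regulators of mitochondrial gene expression had the list median nearest to that of all tested genes, -0.17 against -0.06. By calls the list was not near to them, with 4 of 16 genes lower at FDR under 0.05, beside 6.39% of all tested genes. All 4 belong to the nuclear receptors and coactivators that drive oxidative metabolism. Ppara, the fatty acid sensing receptor, had 13.7, 40.6, 15.2 and 25.9 CPM in the controls and 6.82, 4.35, 9.43 and 4.91 CPM after injury. It was called at -1.90 (SE 0.41, adjusted p = 0.0167), though not without injured artery 2 or 4. Esrrg, an orphan receptor of oxidative tissues, had 10.8, 11.2, 11.0 and 9.87 CPM in the controls and 7.12, 1.81, 2.75 and 1.47 CPM after injury. Its controls lay close together and injured artery 1 was the highest of its group, and it was called at -1.70 (SE 0.48, adjusted p = 0.0449), a call that held without control artery 4 or injured artery 1 but not without any other artery. The coactivators Ppargc1a and Ppargc1b fell by 0.98 and 0.99 on the log2 scale (adjusted p = 0.0313 and 0.00674). Nrf1, Gabpa and Esrra, factors that bind the promoters of respiratory chain genes, had 0.08, -0.24 and 0.39 with adjusted p of 0.828, 0.452 and 0.157. Tfam, which packages and transcribes mitochondrial DNA, had 0.05 with an adjusted p of 0.826.

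The promoters of the members were searched for the binding motifs of such factors. RefSeq promoter sequences (assembly GRCr8, 250 bases before to 50 after the start) were found for 55 of the 66 members, and exact matches were sought on both strands. The motif of GABPA, spelled CCGGAAGT, was found in 7 of the 55 (12.7%) and in 7.30% of the promoters of tested genes. The NRF1 motif, GCGCATGC, was in 4 (7.27% against 4.71%), and that of YY1, AAGATGGC, in 11 (20% against 4.90%). At least 1 of these 3 motifs was present in 19 member promoters, 34.5%, and in 15.7% of all tested promoters. The letters of the YY1 motif contain ATG, the start codon, so a match just after a start site can be coding sequence. TCAAGGTCA, the motif of the ERR receptors, was found in 1 member, Sdhd, and TACGTG, a hypoxia motif, in 4 (7.27% against 3.58%). None of the motifs contains another, and a match is a description of the sequence only.

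The promoters of 4 members are shown, 5′ to 3′ on the strand of the gene, with matches in capitals. Cox8a (chr1:213833574-213833873, minus strand) is shown because it was called lower and its promoter matched the most motifs, with TACGTG on the left, then ACTTCCGG at 2 places, which is the GABPA motif on the other strand, and GCCATCTT, the YY1 motif on the other strand. Uqcrq (chr10:38089929-38090228, minus strand) shows a single GABPA motif in a member whose groups did not overlap. Ndufa4l2 (chr7:65241919-65242218, plus strand), the lowest of complex I, holds the YY1 letters across its start site. The ATG in these letters opens a reading frame with no stop codon in the rest of the sequence shown. This match, counted among those of YY1, can therefore be coding sequence. Cox6a2 (chr1:192219667-192219966, minus strand), the member that rose, holds TAAAAATA, which is the MEF2 motif TATTTTTA on the other strand, found in no other member promoter and in 1.22% of those of tested genes.
Cox8a: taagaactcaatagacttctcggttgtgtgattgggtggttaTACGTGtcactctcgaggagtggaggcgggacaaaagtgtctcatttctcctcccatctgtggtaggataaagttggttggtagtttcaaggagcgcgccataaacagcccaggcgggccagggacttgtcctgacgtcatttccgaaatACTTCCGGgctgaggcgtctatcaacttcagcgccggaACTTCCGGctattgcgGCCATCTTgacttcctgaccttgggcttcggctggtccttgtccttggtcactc
Uqcrq: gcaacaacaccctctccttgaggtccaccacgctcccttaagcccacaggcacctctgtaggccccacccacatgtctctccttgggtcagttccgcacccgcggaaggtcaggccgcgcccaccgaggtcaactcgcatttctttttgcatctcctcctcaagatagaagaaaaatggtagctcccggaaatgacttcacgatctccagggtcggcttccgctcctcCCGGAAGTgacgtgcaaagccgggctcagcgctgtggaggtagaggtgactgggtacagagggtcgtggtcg
Ndufa4l2: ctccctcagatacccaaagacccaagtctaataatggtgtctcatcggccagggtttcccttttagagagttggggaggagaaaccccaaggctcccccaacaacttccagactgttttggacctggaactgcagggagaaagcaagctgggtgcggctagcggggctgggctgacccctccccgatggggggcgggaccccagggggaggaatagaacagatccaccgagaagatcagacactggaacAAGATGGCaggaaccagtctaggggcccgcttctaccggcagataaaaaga
Cox6a2: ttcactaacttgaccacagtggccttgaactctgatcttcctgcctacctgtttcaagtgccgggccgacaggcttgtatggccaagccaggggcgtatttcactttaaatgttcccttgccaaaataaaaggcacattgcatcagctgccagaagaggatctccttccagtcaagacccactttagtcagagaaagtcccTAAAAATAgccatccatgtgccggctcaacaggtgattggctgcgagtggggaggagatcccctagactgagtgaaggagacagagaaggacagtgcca

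Of the 78 names, 12 fell below the summed count of 80. The names at 0 in every library numbered 8, and they were Ndufa1, Ndufb11, Ndufb4l1, Cox7b, Cox7b2, Cox8c, Cox6c-ps1 and Ndufs5-ps1. Ndufa7l had 1 count, Ndufb4-ps1 2, Ndufv3-ps1 9 and Ndufs6 14. Just inside the limit were Cox6a2 with 100, Cox7a2l2 with 106 and Cox8b with 141. Ndufa1, Ndufb11 and Cox7b are X-linked, and the gap was not particular to them, since 591 of 605 protein-coding genes placed on the X chromosome by the RefSeq table (97.7%) were at 0 in all libraries, against 1541 of 16012 autosomal ones (9.62%). Pgk1 and Hprt1, X-linked genes that every cell uses, were also at 0, as were the X-linked Pdha1, Pdk3, Idh3g and Slc25a5 of the related lists. For these genes nothing can be said about expression. Cox7a1, the muscle isoform of subunit VIIa, was not analysed here.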

How the data were processed

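mRNA of 4 injured and 4 control carotid arteries was sequenced. The authors deposited 1 table of read counts per gene symbol, not normalized. The submitters' processing notes name HISAT2 2.0.4, and the counting tool, strand setting and genome build are not given in the sources used here. Counts were analysed with edgeR 4.0.16 in R 4.3.3 with filterByExpr, TMM factors and the quasi-likelihood test, injured against control without a block, over 14359 of 37209 genes, and p-values were adjusted over all of them by the Benjamini-Hochberg method. A gene was called at FDR under 0.05 with a fold change above 2. Standard errors were derived from the test, as the absolute log2 fold change divided by the square root of its F statistic. Alternatives were DESeq2 1.42.0, library totals or other factors (upper-quartile, RLE) in place of TMM, other filters, a test against a 2-fold change, a replicate block and leaving out each artery. The plot of levels by artery adds 0.5 CPM before the logarithm. With 4 arteries a group, p-values set the group difference against the spread between these arteries. That spread was moderated across genes, and possible pairs from the same rat were not modelled.

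The members and lists were chosen with earlier results of these data known. Named were the members called, up to 20 more at FDR under 0.05 with the largest changes, the isoform pairs, the extremes of each complex, the core of complex I, complex II, Uqcrfs1 and Cyc1. From each related list the up to 3 highest and up to 3 lowest genes that passed FDR 0.05 were named. Ndufa5, Ndufa8, Ndufa12, Ndufv3, Uqcrb, Uqcrc1, Uqcrc2, Uqcr10, Uqcr11, Cox5a, Cox5b, Cox7c, Cox7a2l, Cox7a2l2, Cox6c, Cycs, the other genes of mitochondrial DNA, Ppargc1a, Nrf1, Gabpa, Esrra and Tfam were added outside that rule, after their values were seen. Values of some genes are not reported here.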

Additional observations from a re-analysis of the deposited data

Results flagged for a closer look

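In each group of 4 arteries, the gap between the highest or lowest value and its neighbour was set against the whole range, and a ratio above Dixon's 95% critical value was taken as a value apart. Over 78 groups of levels 7 ratios exceeded it, where chance gives about 1 in 20, or 3.9. The groups share the same arteries, so the ratios are not independent and the comparison is no test. Injured artery 3 was the high value for Cox4i1 (293.9 CPM, next 260.9, ratio 0.927), Ndufs1 (63.7 CPM, next 49.6, ratio 0.878), Ndufs8 (39.1 CPM, next 32.0, ratio 0.868) and Ndufa4 (75.6 CPM, next 56.9, ratio 0.851). Control artery 3 was the low value for Ndufa11 (56.3 CPM, next 71.4, ratio 0.873). It also held the single Cox6a2 read of the control group, 0.07 CPM against 0 in the others. The ratio was 1, which any single value above 0 gives when the others are all 0. Injured artery 4 had the high value of Cox8b, 0.82 CPM against at most 0.17 CPM in the other injured arteries (ratio 0.857). Control artery 4 gave none of the 7.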

How the results depend on the processing

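Members called lower numbered 6, and they numbered 2 with upper-quartile factors, 2 with library totals only, 2 without control arteries 2 and 4 (a setting chosen after seeing the data), 0 in the test against a fold change of 2 and 34 at FDR under 0.05 alone. They ranged from 2 to 10 when each artery was left out. The member called higher was lost only with at least 10 counts required in every sample, a filter that removes Cox6a2 and leaves 0. Cox6a2 became a member only through the injured arteries, so its calls in the other fits are given as a description. The 34 members lower at FDR under 0.05 became 17 with library totals only and 18 without control arteries 2 and 4, and 14 to 36 when each artery was left out. DESeq2 gave 46. Over all tested genes, 1193 were called higher, 715 with at least 10 counts in every sample, 600 against a fold change of 2, 1800 without control artery 4 and injured artery 3, and 945 to 1817 when each artery was left out. The 369 called lower became 61 against a fold change of 2, 673 without control artery 4 and injured artery 3, 918 at FDR under 0.05 alone, and 197 to 581 when each artery was left out. They were 296 with upper-quartile factors, 248 with library totals only, 480 without control arteries 2 and 4, and 550 with DESeq2. Library totals moved the median of all tested genes from -0.06 to 0.12 on the log2 scale. The members' median relative to it was -0.61 with either scaling and between -0.50 and -0.72 over all settings. The medians of complexes III and IV became -0.28 and -0.42 without control arteries 2 and 4. The Cox6b2 log2 fold change turned positive, 0.11 with library totals, 0.0103 with the replicate block, and -0.389 to 0.132 when each artery was left out, with positive values without control artery 1 and without injured artery 1 (0.076). Of 682 values of 38 named members under the alternatives, 678 kept their direction. The causes were not tested.

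The labels number the arteries of both groups from 1 to 4 without saying that a number marks a rat. After subtraction of the group means, arteries with a shared number correlated across genes at 0.301, 0.45, -0.52 and -0.416. Of the arteries, 3 of 8 correlated best with their own number. Control artery 4 and injured artery 3, the libraries with the sympathetic neuron markers, correlated best with each other, at 0.784. The negative values belong to their numbers, 3 and 4, so this check cannot decide whether a shared number marks a rat. The main fit did not treat the numbers as pairs. With the replicate block 2 members were called lower, beside 234 of all tested genes. At FDR under 0.05 alone 8 members were lower in that fit. The share of all tested genes at FDR alone was not computed for it, so a general loss of calls is not separated from one among the members. Depth limits Cox6a2, Cox7a2l2, Cox8b and Ndufa13, which had 100 to 187 counts in all.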
